A study of Mus musculus with 12 samples.

Results

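Of 11635 genes tested in mouse embryonic stem cell cultures directed to endoderm or to mesoderm, 848 differed between arid4b∆ and WT cells in the same direction in both lineages. They included 36 genes of the interferon response and antigen presentation, which were higher in the knockout, and 20 genes of the primitive streak, nascent mesoderm and Wnt signalling, which were lower. A gene is called shared here when it passed in the mean of both knockout groups minus the mean of both wild type groups, and also in the endoderm and the mesoderm comparison taken alone, with the same sign. Each of these tests was edgeR's quasi-likelihood test at a Benjamini-Hochberg adjusted p of 0.05 over all genes tested. The 848 shared genes were 411 rises, which is 3.53% of the genes tested, and 437 falls, which is 3.76%.

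The cells were the embryonic stem cell line CJ9. The 4 groups of 3 libraries were WT endoderm, arid4b∆ endoderm, WT mesoderm and arid4b∆ mesoderm, and all were collected after 5 days of directed differentiation. Total RNA was depleted of ribosomal RNA before sequencing. The labels give neither the number of mutant clones, nor the part of Arid4b that was deleted, nor the origin of the 3 libraries within a group. Without it the p-values reflect scatter among the libraries at hand, and that scatter may be technical only.

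Arid4b encodes a DNA- and chromatin-binding subunit of the SIN3 histone deacetylase complex, which acts mostly as a corepressor. When embryonic stem cells leave pluripotency toward mesoderm or endoderm they pass through a primitive streak state, which Wnt, Nodal, BMP and FGF signals induce and which is marked by T-box factors such as T (Brachyury) and Eomes. Interferon-stimulated genes are switched on when double-stranded nucleic acid sensors or interferon receptors activate IRF and STAT factors, which bind DNA elements such as a GAAA repeat called the interferon-stimulated response element. Mouse embryonic stem cells are known for a weak interferon response.

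The 45S ribosomal RNA precursor Rn45s made up 79.6 to 82.4% of the counts and was dropped, so that 1949299 to 6678893 counts per library remained. In that remainder Mir6236 and Lars2 together held 49.7 to 69.5%. At this depth 3 counts correspond to 0.506 to 1.55 CPM (library-size scaled counts), which covers counting error only, and lower levels cannot be told from 0. Arid4b itself (chromosome 13, 14063609 to 14199603, GRCm38.p6) was counted at 41.7, 44.7 and 36.8 CPM in wild type endoderm, 42.8, 51.1 and 45.0 in knockout endoderm, 37.0, 46.5 and 42.9 in wild type mesoderm and 44.9, 41.7 and 47.6 in knockout mesoderm. Its average log2 difference was 0.14 ± 0.081 (SE, adjusted p = 0.222), so counts over the whole gene do not check the deletion, and the groups below are named by their labels. In the wild type the summed level of 18 definitive endoderm genes was 534 to 812 CPM in endoderm and 245 to 303 in mesoderm, which fits the lineage labels. That of 15 nascent mesoderm genes was 52.8 to 72.0 in endoderm and 71.1 to 141 in mesoderm, a smaller gap, and the mesoderm gene Tbx6 had 34 counts in all.

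Genes that met the shared definition were a minority of those that passed in the average contrast. In the average contrast 3284 genes passed, 28.2% of those tested, with 1622 higher (13.9%) and 1662 lower (14.3%) in the knockout. Endoderm alone gave 1478 genes and mesoderm alone 2224. Of the 868 genes that passed in both, 848 had the same sign and 20 had opposite signs. Another 1643 genes of the average contrast passed in 1 lineage only, and 789 passed in neither. Most of the average contrast nevertheless had the same sign in both lineages, 3206 of its 3284 genes, the 789 included. Choosing genes by the mean of both lineages favours equal signs, so this count is no evidence of a change in each lineage. A gene that passed in 1 lineage only may or may not have changed in the other.

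Among shared genes the median average log2 difference was 0.73 for rises and -0.99 for falls, beside -0.00403 for all genes tested, and 293 genes differed at least 2-fold in both lineages, 117 of them higher and 176 lower. In 796 shared genes, 378 rises and 418 falls, the 3 knockout libraries did not overlap the 3 wild type libraries in either lineage, a pattern that 14.5% of all tested genes show. The shared calls were sensitive to single libraries: 342 of the 848 (145 rises and 197 falls) were shared without any 1 of the 12, and leaving out wild type endoderm library 2 lowered the rises to 217. Shared genes were also better measured than most, with a median of 24.0 CPM against 14.4 for all genes tested. A test of the difference between the lineages' effects passed for 163 genes (1.4%), of which 32 were shared genes, 21 with the larger effect in endoderm and 11 in mesoderm. Across all 11635 genes the endoderm and mesoderm log2 differences, which share no library, had a Pearson correlation of 0.605 and a Spearman correlation of 0.565, given here as a description since genes are not independent replicates.

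**Figure D1:**
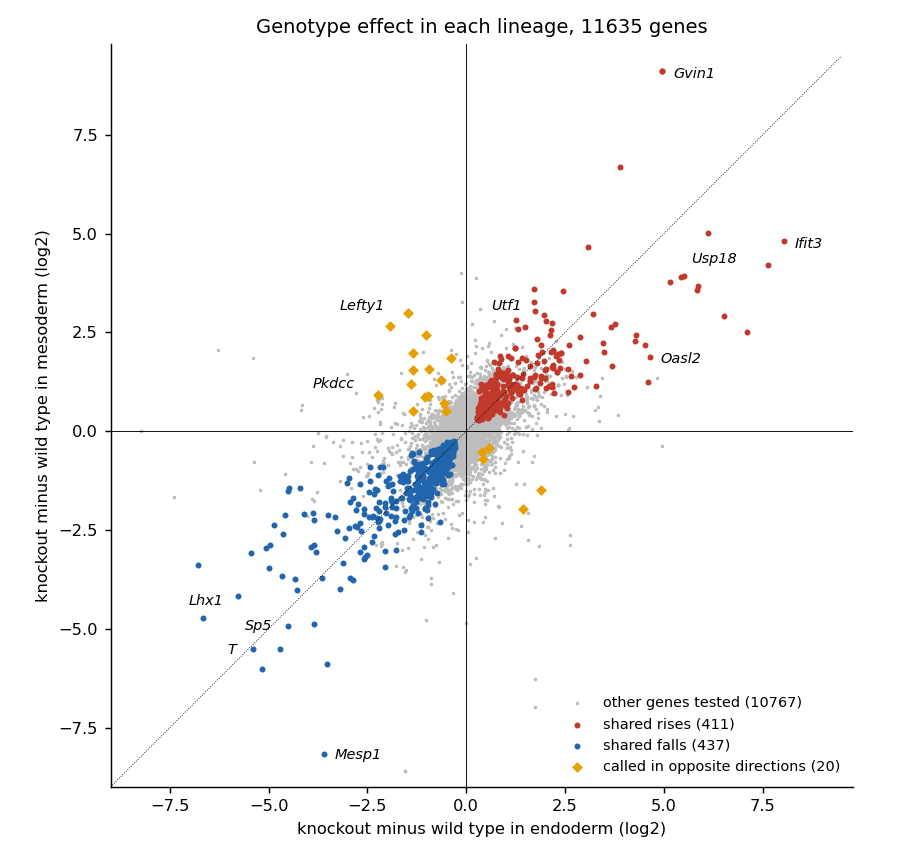
Log2 difference, arid4b∆ minus WT, in endoderm (horizontal axis) and mesoderm (vertical axis) for each of 11635 tested genes, with the 411 shared rises in red, the 437 shared falls in blue and the 20 genes called with opposite signs as diamonds. T lies at about the same large fall on both axes, Usp18 is high on both, and Lefty1 falls in endoderm (-1.48) and rises in mesoderm (2.98). Values for genes with no count in a group, such as Gvin1, Ifit3 and Mesp1, depend on the fit's prior count and are no bound.

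Genes that mark the primitive streak fell in both lineages. Of 17 tested streak genes, 9 were shared falls and none was a shared rise, and the list's median average log2 difference was -2.71. T, the T-box factor of the streak and notochord (chromosome 17, 8434423 to 8442496), was counted at 44.9, 37.0 and 57.5 CPM in wild type endoderm against 1.46, 0.679 and 1.22 in the knockout, and at 131, 212 and 316 CPM in wild type mesoderm against 3.65, 2.78 and 7.76. Every knockout library was thus far below every wild type library, although wild type mesoderm had several times the level of wild type endoderm. The average log2 difference was -5.46 ± 0.28 (SE, adjusted p = 6.34e-12), with -5.40 in endoderm and -5.51 in mesoderm.

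Eomes, the T-box factor needed for definitive endoderm and for exit from pluripotency, had the reverse distribution over the wild types. It was at 112, 127 and 119 CPM in wild type endoderm and 12.2, 15.5 and 18.5 in knockout endoderm, and at 53.3, 59.9 and 61.4 in wild type mesoderm and 12.1, 16.7 and 21.7 in knockout mesoderm. Knockout levels overlapped between the lineages while wild type levels did not, and the fall was larger in endoderm (log2 -2.93) than in mesoderm (-1.79, adjusted p of the difference = 0.00699). Lhx1, a LIM homeodomain factor of the anterior streak, was at 49.6, 69.0 and 58.7 CPM in wild type endoderm and at 0.291, 0.849 and 0.406 in the knockout. In mesoderm it had 100 counts in the wild type and 3 in the knockout, 29.6 times fewer for equal depth (95% counting interval 9.85 to 146). Mixl1, a homeodomain factor of the streak, fell from 40.6, 47.5 and 41.7 CPM to 2.04, 1.53 and 2.84 in endoderm and from 12.3, 33.6 and 38.3 to 1.40, 1.54 and 3.21 in mesoderm.

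Fst, the secreted activin and BMP inhibitor follistatin, was nearly even between lineages, with 28.6, 33.7 and 40.2 CPM in wild type and 9.03, 3.23 and 4.87 in knockout endoderm, and 54.8, 65.1 and 69.7 in wild type and 6.17, 8.02 and 8.56 in knockout mesoderm. The average log2 difference was -2.87 ± 0.15 (SE, adjusted p = 1.35e-11). The exception in the list was Otx2, a homeodomain factor of the anterior epiblast as well as of the anterior streak. Its endoderm libraries overlapped (102, 120 and 93.2 against 78.4, 90.5 and 96.0 CPM), whereas in mesoderm it was higher in the knockout (25.8, 12.9 and 13.7 against 78.8, 66.0 and 60.5 CPM), and the effects differed (adjusted p = 8.76e-06).

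**Figure D2:**
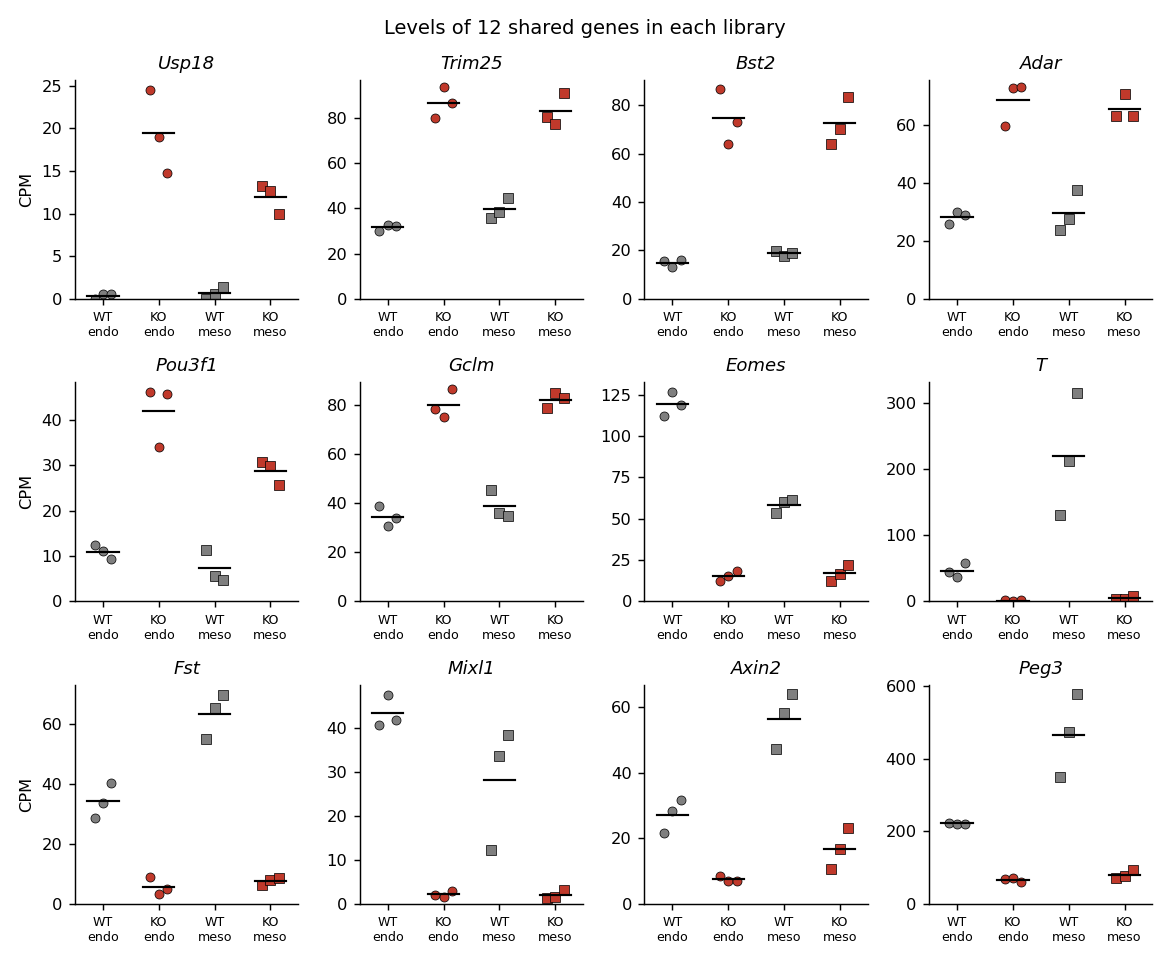
CPM in each of the 12 libraries for 12 shared genes, by group (KO is arid4b∆), on linear axes that start at 0, with a horizontal line at the group mean. In each of the 12 genes the 3 knockout libraries lie on the same side of the 3 wild type libraries in endoderm and in mesoderm.

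The Wnt list, which also holds the streak genes T, Sp5, Wnt3 and Fgf8, was lower as well. Of 20 tested Wnt target and ligand genes, 10 were shared falls and none a shared rise, and 14 were lower in the average contrast. Sp5, a zinc-finger factor induced directly by Wnt signalling, was at 19.3, 19.4 and 20.7 CPM in wild type and 1.17, 1.02 and 0.406 in knockout endoderm, and was counted 48, 37 and 96 times in wild type and 0, 1 and 4 times in knockout mesoderm (average log2 -4.72 ± 0.26 SE, adjusted p = 2.53e-11). The ligand Wnt3 fell from 20.1, 19.6 and 21.5 CPM to 5.54, 4.93 and 5.88 in endoderm and from 34.0, 37.7 and 44.0 to 10.7, 12.7 and 13.1 in mesoderm. Its fellow ligand Wnt8a was at 10.3 to 13.6 CPM in the wild type endoderm libraries, 11.6 to 16.5 in the wild type mesoderm libraries and 0.561 to 3.48 in the knockout libraries. Axin2, the feedback inhibitor in the destruction complex, Nkd1, another feedback inhibitor, and Tcf7, a DNA-binding partner of beta-catenin, were further shared falls. Rspo3, a secreted amplifier of Wnt signalling outside the list, was among the 10 largest shared falls at 5 CPM or more with no overlap between the genotypes (average log2 -3.60 ± 0.45 SE). Its shared call was lost without wild type endoderm library 2.

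The RefSeq promoter table, with windows from 250 bases before to 50 after the start site in GRCm38.p6, held 15 of the 20 shared falls of the streak, nascent mesoderm and Wnt lists. The heptamer CTTTGAT, bound by TCF and LEF factors, occurred on either strand in 3 of these 15 windows (20%), in 12 of 322 windows of all shared falls (3.73%) and in 266 of 9244 windows of tested genes (2.88%). The T-box site TCACACCT was in 1 of the 15 (6.67%), in 0.621% of shared fall windows and in 0.984% of tested gene windows. The 150 bases before the start site are printed for Sp5 and for Mesp1, a basic helix-loop-helix factor of nascent mesoderm, because these streak and Wnt list members hold a heptamer there, which is in capitals. Sp5 is on the plus strand at chr2:70474773-70474922 and Mesp1 on the minus strand at chr7:79793591-79793740. Both stretches run 5′ to 3′ toward the start site.
Sp5: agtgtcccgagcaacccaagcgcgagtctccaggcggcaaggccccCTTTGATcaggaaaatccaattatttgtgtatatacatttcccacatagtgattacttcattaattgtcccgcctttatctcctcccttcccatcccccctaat
Mesp1: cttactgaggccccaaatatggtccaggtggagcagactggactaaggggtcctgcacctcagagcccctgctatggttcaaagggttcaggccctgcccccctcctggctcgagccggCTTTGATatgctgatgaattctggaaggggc
The match begins 104 bases before the start site in Sp5 and 31 bases before it in Mesp1. A match of letters describes the window and says nothing of whether a factor was bound.

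Nascent mesoderm genes fell in endoderm cultures as well as in mesoderm cultures. Of 8 tested, 5 were shared falls, with a median average log2 difference of -2.99. Pdgfra, a growth factor receptor of early mesoderm, was at 37.6, 28.9 and 36.8 CPM in wild type and 3.21, 2.21 and 1.83 in knockout endoderm, and at 22.8, 34.6 and 37.1 in wild type and 7.85, 3.09 and 1.87 in knockout mesoderm (average log2 -3.37 ± 0.21 SE, adjusted p = 1.58e-10). Aplnr, the apelin receptor of migrating mesoderm, had 166 counts in wild type and 3 in knockout mesoderm (ratio 49.2, interval 16.5 to 241). Kdr, the VEGF receptor of blood and vessel precursors, had a single count in each knockout group, against 45 in wild type endoderm (ratio 50.2, interval 8.56 to 2030) and 99 in wild type mesoderm (ratio 88.0, interval 15.4 to 3510). Mesp1 was counted 98 times in wild type and 0 times in knockout mesoderm, at least 29.0-fold lower against 3 counts over the group. In endoderm it had 15 counts against 1, a ratio of 16.7 (interval 2.57 to 705), and its shared call was lost without any 1 endoderm library. The summed level of the 15 nascent mesoderm genes was 8.66 to 11.9 CPM in knockout endoderm and 14.2 to 16.3 in knockout mesoderm.

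Over the 40 tested genes of the streak, nascent mesoderm and Wnt lists, each counted once, 29 were lower in the average contrast and 20 were shared falls. The summed level of those 20 was 530 to 603 CPM in the wild type endoderm libraries, 83.9 to 92.5 in knockout endoderm, 569 to 924 in wild type mesoderm and 112 to 163 in knockout mesoderm. These are bulk cultures, in which fewer cells of a type and less RNA per cell cannot be told apart. Without any 1 library the streak list had 9 to 10 shared falls and the Wnt list 9 to 10.

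In the definitive endoderm list 11 of 15 tested genes were lower in the average contrast but 5 were shared falls, among them Gata6 and Gata4, zinc-finger factors of endoderm, and the simple-epithelium keratins Krt8 and Krt18. This count fell to 3 without knockout endoderm library 2, wild type mesoderm library 2 or knockout mesoderm library 3, to 2 without wild type mesoderm library 3 or knockout mesoderm library 1, and to 1 without knockout mesoderm library 2. Gata6 was at 18.4, 27.0 and 21.8 CPM in wild type and 2.04, 0.849 and 0.406 in knockout endoderm, but at 2.25, 2.58 and 2.87 against 1.12, 0.617 and 1.07 in mesoderm, and its fall was larger in endoderm (adjusted p of the difference = 0.0311). Krt8 fell by 1.25 in endoderm and by 1.13 in mesoderm on the log2 scale. Cxcr4, a chemokine receptor used to sort definitive endoderm, had an endoderm log2 difference of -3.84 and a mesoderm one of -1.77, of which the second did not pass.

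Of 18 Nodal pathway genes, 5 were shared falls (Eomes, Mixl1, Lhx1, Fgf8 and the co-receptor gene Cfc1) and 1, the ligand gene Gdf3, a shared rise. Without any 1 library the falls numbered 4 to 5, and Cfc1 and Gdf3 lost their calls without library 2 of either wild type group, among others. Fgf8, a streak ligand, went from 48.2, 64.8 and 51.3 CPM to 6.70, 6.28 and 8.32 in endoderm and from 18.5, 32.6 and 34.1 to 1.12, 8.64 and 5.89 in mesoderm. Of 11 BMP genes 2 were shared falls, the inhibitor Smad6 (average log2 -1.86 ± 0.24 SE) and the homeobox target Msx1 (-2.11 ± 0.31), and there were 4 without wild type mesoderm library 1. FGF and ERK targets gave 2 of 12, Il17rd and Spred1, both feedback inhibitors of the pathway. That number fell to 1 without wild type endoderm library 2 or knockout endoderm library 2. The Notch list gave 1 of 11 (9.09%, beside 3.76% of all tested genes), the ligand Dll3. Of 8 tested retinoic acid genes 2 were shared falls, among them Cyp26a1, which degrades retinoic acid, and the number was 1 without wild type endoderm library 2 or knockout endoderm library 2 or 3. Cyp26a1 had 121 counts in wild type and 2 in knockout endoderm (ratio 67.5, interval 18.3 to 564) and 27 against 1 in mesoderm (ratio 24.0, interval 3.96 to 983).

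Genes of adhesion and migration included Cdh2, N-cadherin, at 28.6, 56.4 and 28.6 CPM in wild type and 2.62, 1.53 and 2.84 in knockout endoderm, and 13.5, 25.8 and 35.1 in wild type and 7.29, 5.25 and 5.08 in knockout mesoderm (average log2 -3.10 ± 0.26 SE). It was 1 of 2 shared falls among 13 tested mesenchymal genes. The other, Zeb2, a repressor of epithelial genes, lost its shared call without any endoderm library except knockout library 1, and without knockout mesoderm library 2 or 3.

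The most even shared falls, chosen for a difference between lineages under 0.5 log2 and then by adjusted p, held further cell surface and developmental genes. Prtg, protogenin, an immunoglobulin-family surface protein of the early embryo (chromosome 9, 72807274 to 72917307), was at 139, 147 and 150 CPM in wild type and 48.7, 54.5 and 56.4 in knockout endoderm, and at 177, 199 and 179 in wild type and 64.8, 67.3 and 70.6 in knockout mesoderm. The libraries of each group lay close together beside the gap, and the log2 difference was -1.44 in endoderm and -1.45 in mesoderm (average adjusted p = 1.63e-12). Frem2, an extracellular matrix protein of basement membranes, fell from 55.7, 52.6 and 58.4 CPM to 12.2, 9 and 9.74 and from 90.3, 85.8 and 68.7 to 14.9, 17.3 and 21.4 in the same order. Sall3, a zinc-finger factor, fell by 2.59 in endoderm and fell by 2.92 in mesoderm on the log2 scale.

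The largest shared rises were interferon-stimulated genes. Of 25 tested interferon effector genes, all 25 were higher in the average contrast and 21 were shared rises, with a median average log2 difference of 3.09 (3.77 in endoderm and 2.39 in mesoderm). Without any 1 library the list had 20 to 22 shared rises. Bst2, tetherin, which holds budding virus at the membrane (chromosome 8, 71534255 to 71537472), was at 15.5, 13.1 and 16.2 CPM in wild type and 86.9, 64.0 and 73.0 in knockout endoderm, and at 19.8, 17.6 and 18.9 in wild type and 64.2, 70.4 and 83.5 in knockout mesoderm. Its average log2 difference was 2.14 ± 0.099 (SE, adjusted p = 1.93e-12), and the groups did not overlap.

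Several effectors had almost no reads in the wild type. Oas1a, which makes the 2-5A messenger that activates RNase L, was at 0, 0.344 and 0.567 CPM in wild type and 14.6, 12.4 and 17.9 in knockout endoderm, and at 0.751, 0.517 and 0.844 in wild type and 8.97, 13.6 and 12.8 in knockout mesoderm (average log2 4.67 ± 0.28 SE, adjusted p = 6.26e-11). Rtp4, an interferon-induced regulator of antiviral responses, had 2 counts in wild type and 152 in knockout endoderm, a ratio of 68.1 (95% counting interval 18.5 to 568). Ifit1, an RNA-binding antiviral protein, had 2 and 149, a ratio of 66.8 (18.2 to 556). Its neighbour Ifit3 had no count in wild type endoderm and was at least 32.3-fold higher in the knockout, against 3 counts over the group. For Gvin1, a very large interferon-induced GTPase, the bound in mesoderm was at least 66.7-fold. Its counts were identical to those of the gene model Gm4070 in every library, so they cannot be assigned to either. Rsad2, Ifi204 and the effector Mx2 were further shared rises, and Mx2 lost its call without library 1 or 2 of either mesoderm group.

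Of 6 tested sensors 4 were shared rises, and the list's median average log2 difference was 1.42. Ddx58, the RNA sensor RIG-I, was at 2.63, 2.24 and 1.13 CPM in wild type and 22.7, 30.7 and 25.8 in knockout endoderm, and at 6.25, 6.20 and 11.1 against 26.6, 27.2 and 26.2 in mesoderm. Adar, which edits adenosine to inosine in double-stranded RNA, was even between lineages (25.7, 29.9 and 28.9 against 59.5, 72.7 and 73.0 CPM in endoderm, and 23.8, 27.4 and 37.6 against 62.8, 70.4 and 62.9 in mesoderm). The ubiquitin ligase of RIG-I, Trim25 (average log2 1.25 ± 0.077 SE), and the translation-blocking kinase Eif2ak2 (1.6 ± 0.14) made up the 4.

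Of 11 tested signalling genes 3 were shared rises. Irf9, the DNA-binding subunit of the interferon-activated factor ISGF3, was at 4.09, 2.75 and 3.97 CPM in wild type and 9.33, 14.3 and 10.8 in knockout endoderm, and at 3.75, 5.68 and 4.73 against 11.8, 13.6 and 11.8 in mesoderm (average log2 1.58 ± 0.17 SE, adjusted p = 4.96e-07). Stat2, which pairs with it, rose by 0.89 ± 0.12 on average (log2, SE). The receptor chain Ifnar1 was lower in the knockout in both lineages (average log2 -0.53 ± 0.11 SE), and its shared call was lost without library 3 of any group, wild type endoderm library 2, knockout endoderm library 1 or library 2 of either mesoderm group. The receptor-bound kinase Jak2, taken up after its values were seen, was also a shared fall (average log2 -1.17 ± 0.16 SE).

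In the list of the ubiquitin-like modifier ISG15, 2 of 4 tested genes were shared rises. Usp18, which removes ISG15 and damps receptor signalling, was at 0, 0.516 and 0.567 CPM in wild type and 24.5, 19 and 14.8 in knockout endoderm, and at 0, 0.517 and 1.35 against 13.2, 12.7 and 9.90 in mesoderm (average log2 4.72 ± 0.32 SE, adjusted p = 4.45e-10). Isg15 itself had no count in wild type endoderm and 57 in the knockout, at least 17.0-fold higher. Herc6, the mouse ISG15 ligase, was at 0.292, 2.75 and 2.55 against 2.04, 2.38 and 1.42 CPM in endoderm and did not pass (average adjusted p = 0.978).

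Of 8 tested interferon-induced GTPases 6 were higher and 2 lower in the average contrast, and Irgm2 and Igtp were the shared rises. Leaving out wild type mesoderm library 3 gave 6 shared rises and 1 shared fall, and leaving out knockout mesoderm library 1 gave 3 and 1. In the antigen presentation list 4 of 17 tested genes were shared rises, B2m, H2-D1, H2-Q6 and H2-Q7, the light chain and heavy chains of class I molecules. B2m was at 8.46, 8.77 and 7.93 CPM in wild type and 39.9, 21.6 and 15.4 in knockout endoderm, and at 18.5, 11.9 and 10.6 against 44.3, 30.2 and 17.1 in mesoderm, where the groups overlapped. The count for the list was 2 without wild type endoderm library 2 or 3 or knockout mesoderm library 2, 0 without wild type mesoderm library 3, and 1 with DESeq2. H2-Q6 and H2-Q7 had counts identical to H2-Q8 and H2-Q9, so reads may have been shared between near-identical copies.

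Together the interferon and antigen presentation lists held 70 tested genes, of which 36 were shared rises and 1, Ifnar1, a shared fall. In 35 of the 36 the groups did not overlap in either lineage, which held for 378 of all 411 shared rises. The effect was larger in endoderm in 33 of the 36, and the difference passed for 7. Wild type mesoderm started higher, with a mean above that of wild type endoderm for 34 of the 36 genes. Median levels over the 36 were 0.719 CPM (WT endoderm), 2.59 (WT mesoderm), 11.7 (knockout endoderm) and 13.7 (knockout mesoderm). The first of these medians is at the limit of resolution, since 3 counts there correspond to 0.516 to 0.876 CPM. For genes that low, the sizes of the wild type gap and of the endoderm rise are uncertain. The count of 33 of 36 therefore rests in part on ratios to levels near 0. The summed level of the 36 and Ifnar1 was 179 to 196 CPM, 729 to 837, 245 to 352 and 759 to 826 in wild type endoderm, knockout endoderm, wild type mesoderm and knockout mesoderm. Ifitm3, an antiviral membrane protein taken up after its values were seen, rose more in endoderm (log2 3.28 in endoderm and 1.15 in mesoderm, adjusted p of the difference = 1.14e-05), and its neighbour Ifitm1, a marker of early mesoderm as well, went the other way (average log2 -2.54 ± 0.27 SE).

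Promoters of these genes often held the response element core, written GAAANNGAAA. Of the 36 shared rises 28 had a window in the promoter table, and 16 of those windows (57.1%) held the core on either strand. Among the remaining shared rises it was in 14 of 286 windows (4.9%), among shared falls in 10 of 322 (3.11%) and among tested genes in 320 of 9244 (3.46%). The 150 bases before the start site follow for 4 effector genes whose values are given here, 5′ to 3′ toward the start site, with the core in capitals and overlapping cores as 1 run. Ifit1 shows the reverse complement of the core, since its matches are on the opposite strand. Oas1a (chr5:120907526-120907675), Isg15 (chr4:156200819-156200968) and Bst2 (chr8:71537473-71537622) are on the minus strand and Ifit1 (chr19:34640739-34640888) on the plus strand of GRCm38.p6.
Oas1a: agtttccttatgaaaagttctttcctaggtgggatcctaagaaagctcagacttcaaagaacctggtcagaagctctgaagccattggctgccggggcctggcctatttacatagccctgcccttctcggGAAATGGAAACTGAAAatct
Ifit1: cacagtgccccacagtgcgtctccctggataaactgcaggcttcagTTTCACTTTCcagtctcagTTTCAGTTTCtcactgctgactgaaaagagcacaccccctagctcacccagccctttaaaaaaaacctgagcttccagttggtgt
Isg15: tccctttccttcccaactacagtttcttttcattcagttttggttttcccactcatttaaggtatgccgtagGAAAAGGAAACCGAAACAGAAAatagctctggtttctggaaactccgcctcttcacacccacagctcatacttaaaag
Bst2: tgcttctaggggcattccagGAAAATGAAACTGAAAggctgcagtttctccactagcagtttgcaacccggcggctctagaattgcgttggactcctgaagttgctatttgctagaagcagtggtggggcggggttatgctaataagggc
The cores begin 20 and 14 bases before the start site in Oas1a, 104 and 85 in Ifit1, 78, 72 and 66 in Isg15, and 130 and 124 in Bst2. In Oas1a, Isg15 and Bst2 the cores overlap in a run of GAAA repeats, whereas Ifit1 holds 2 separate copies on the opposite strand. These are matches of letters and not measured binding.

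Markers of fibroblasts and of immune cells were counted beside this group, since either cell type can express these genes and feeder fibroblasts are often used for embryonic stem cells. Of 17 tested fibroblast genes 10 were higher and 1 lower in the average contrast, where 13.9% and 14.3% of all tested genes were. The list's median log2 difference was 0.91 on average, 1.23 in endoderm and 0.53 in mesoderm. Shared rises numbered 2 (11.8%, beside 3.53% of all tested genes), and 1 to 6 when single libraries were left out. There were 8 with a replicate block and 8 with no filter on low counts. The summed level of all 20 genes of the list was 291 to 401 CPM in wild type endoderm, 399 to 943 in knockout endoderm, 611 to 1090 in wild type mesoderm and 480 to 1050 in knockout mesoderm. Col1a1, the fibrillar collagen that defines fibroblasts here, was at 20.4, 5.50 and 7.08 CPM in wild type and 72.0, 45.0 and 19.3 in knockout endoderm, and at 30.0, 8.27 and 18.4 against 67.6, 37.3 and 31.0 in mesoderm. Of the blood and immune markers, Ptprc had 43 counts over all 12 libraries, and the summed level of 13 genes was 4.64 to 15.2, 10.8 to 49.8, 6.20 to 24.3 and 15.8 to 39.3 CPM in the same group order.

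Library 1 had the most Col1a1 in every group. Within both knockout groups B2m, Gvin1, Ifit1, Ifit3, Lgals3bp and Usp18, like Col1a1, were highest in library 1 and lowest in library 3. Bst2, Rtp4, Oas1a, Ddx58, Adar and Irf9 did not have that order. The genes named are examples and not a count over the lists. In both knockout groups the summed level of the shared interferon and antigen presentation genes was also highest in library 1 and lowest in library 3. It was 837, 752 and 729 CPM in knockout endoderm and 826, 765 and 759 in knockout mesoderm. In the wild types library 1 was lowest, with 179, 196 and 193 CPM in endoderm and 245, 270 and 352 in mesoderm. Libraries of like Col1a1 level can be set side by side, a choice made after the values were seen. Each side is then 1 library matched on 1 marker, so the pairs cannot decide what fibroblasts contribute. Wild type mesoderm library 1 and knockout mesoderm library 3 had 30.0 and 31.0 CPM of Col1a1. Their B2m was at 18.5 and 17.1 CPM, Bst2 at 19.8 and 83.5 and Usp18 at 0 and 9.90. At 20.4 and 19.3 CPM of Col1a1, wild type endoderm library 1 and knockout endoderm library 3 had 8.46 and 15.4 CPM of B2m, 15.5 and 73.0 of Bst2 and 0 and 14.8 of Usp18. The part of fibroblasts or immune cells in the rise of the lists was not tested.

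**Figure D3:**
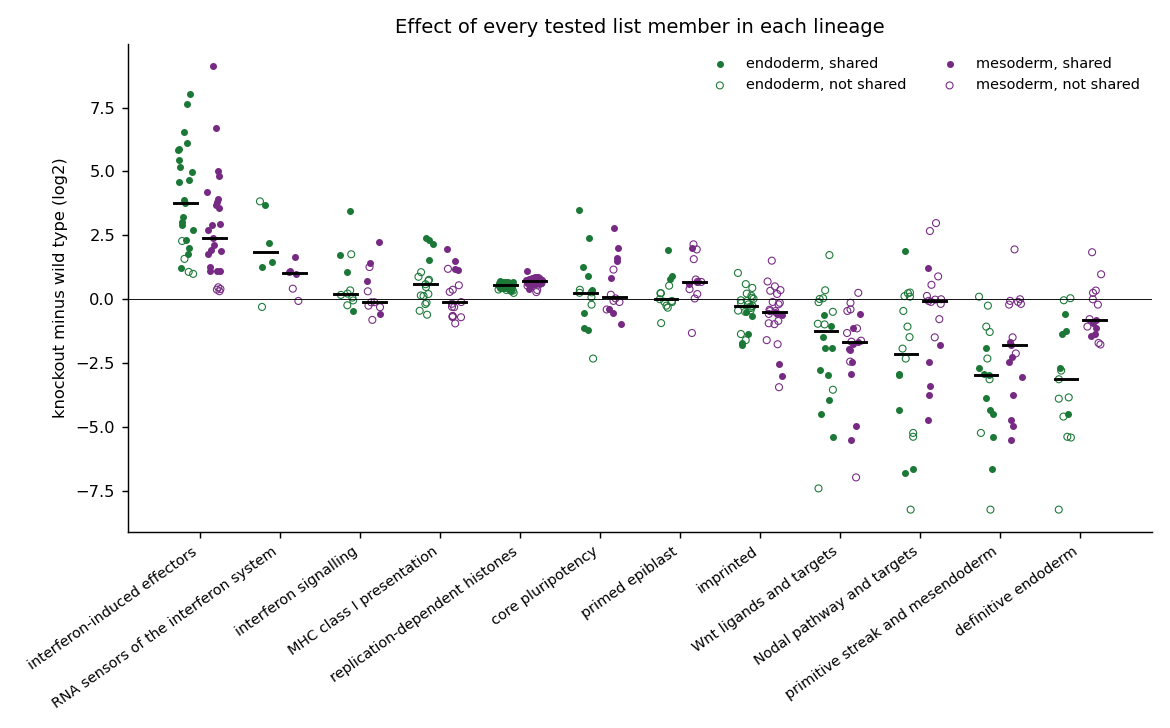
Log2 difference, arid4b∆ minus WT, in endoderm and in mesoderm for every tested member of 12 gene lists, with shared genes filled and a line at the list median. All 25 interferon effectors lie above 0 in both lineages, and the shared streak and Wnt genes lie below 0 in both.

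Pluripotency and epiblast genes moved in both directions. Of 14 core pluripotency genes 5 were shared rises (Sox2, Utf1, Dppa2, Dppa4 and L1td1) and 3 shared falls, among them Nanog and Sall4. The rises numbered 3 without wild type endoderm library 2. Utf1, a chromatin factor of undifferentiated cells, was at 52.2, 52.5 and 42.2 CPM in wild type and 111, 121 and 122 in knockout endoderm, and at 23, 8.79 and 11.1 in wild type and 112, 106 and 93.7 in knockout mesoderm. Knockout levels overlapped between the lineages, and the rise was larger in mesoderm (log2 2.80 against 1.27, adjusted p of the difference = 0.00101). Sox2, a core pluripotency and neural factor, went from 23.3, 21.5 and 20.4 CPM to 36.1, 39.7 and 46.7 in endoderm and from 18, 4.13 and 14.7 to 37.3, 37.7 and 39.9 in mesoderm. Nanog, another core factor, was lower, at 93.4, 90.8 and 107 against 44.3, 43.0 and 40.0 CPM in endoderm and 80.1, 63.6 and 86.2 against 42.6, 52.5 and 67.4 in mesoderm, where the groups overlapped. Its shared call was lost without wild type mesoderm library 3 or knockout mesoderm library 1. Pou5f1, the factor OCT4, was at group means of 243, 256, 224 and 253 CPM in wild type endoderm, knockout endoderm, wild type mesoderm and knockout mesoderm and did not pass (average adjusted p = 0.196).

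In the primed epiblast list 3 of 13 tested genes were shared rises, a number that fell to 1 without knockout mesoderm library 1 or 3. Pou3f1, a POU factor of primed epiblast and early neural tissue, was at 12.5, 11 and 9.35 CPM in wild type and 46.3, 34.0 and 45.8 in knockout endoderm, and at 11.3, 5.68 and 4.73 against 30.8, 29.9 and 25.7 in mesoderm. Its effect was even (log2 1.92 and 2.00, average adjusted p = 3.32e-09). Foxd3, a forkhead factor of epiblast, was higher in mesoderm alone (log2 2.15, against 0.24 in endoderm, adjusted p of the difference = 0.00699). Of 11 naive pluripotency genes 2 were shared rises, Fgf4 (average log2 2.06 ± 0.17 SE), the ligand that pushes cells out of the naive state, and Dppa5a, a marker of undifferentiated cells. There was 1 shared rise without wild type endoderm library 2 or 3, knockout endoderm library 1 or 3, wild type mesoderm library 1 or 2 or knockout mesoderm library 3.

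Among markers of other embryonic cell types, neural ectoderm gave 2 shared rises (Sox2 and Sox3) and 1 shared fall (Irx3) of 8 tested, while the defining genes Sox1 and Pax6 had too few counts to be tested, 11 and 49 over all libraries. Without library 1 of either mesoderm group the neural list had 1 shared rise and no shared fall, without knockout mesoderm library 2 no shared fall, and without knockout mesoderm library 3 it had 1 of each. Trophoblast gave 3 shared falls of 6, Eomes, Peg10 and Tfap2c, each expressed in other tissues as well. The germ cell list gave 2 shared rises of 5, the RNA helicase Ddx4 (average log2 2.07 ± 0.35 SE) and Tdrd1, and 1 shared fall, Tex15, all of them known for roles in spermatogenesis. Tdrd1 kept its call without wild type endoderm library 1, knockout endoderm library 1 or 2 or wild type mesoderm library 1, and lost it without each of the others. Extraembryonic endoderm gave 3 shared falls of 14, and the number was 1 without knockout endoderm library 2, wild type mesoderm library 3 or knockout mesoderm library 2. Its 1 shared rise was Lrp2, the endocytic receptor megalin (average log2 0.80 ± 0.096 SE).

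**Figure D4:**
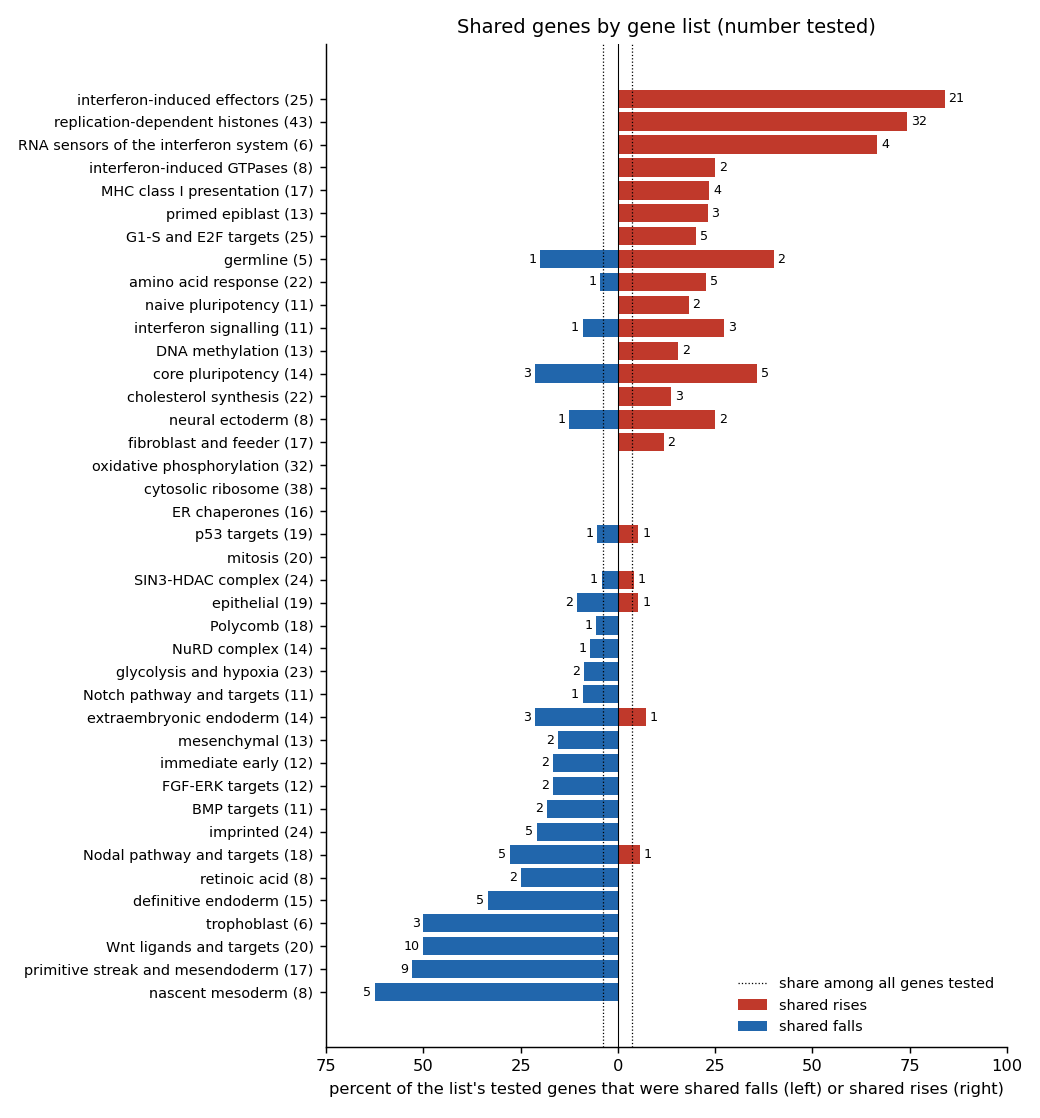
Percentage of tested genes, for the lists drawn, that were shared rises or shared falls, with dotted lines at the background over all tested genes (3.53% for rises and 3.76% for falls). Interferon effectors (84.0%) and histones (74.4%) stand highest among rises, and nascent mesoderm (62.5%), the streak (52.9%) and Wnt genes (50%) are among the highest falls.

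Replication-dependent histone genes were the second group of rises, by smaller amounts. All 43 tested histone genes of the list were higher in the average contrast, and 32 were shared rises. Hist1h1a, a linker histone, was at 185, 142 and 152 CPM in wild type and 282, 220 and 218 in knockout endoderm, and at 186, 210 and 139 in wild type and 323, 286 and 258 in knockout mesoderm (average log2 0.65 ± 0.098 SE, adjusted p = 3.5e-05). The average log2 difference of the 32 was 0.38 to 0.87. Their summed level was 5370 to 7480 CPM in wild type endoderm and 8250 to 11800 in knockout endoderm, and 4680 to 6800 in wild type and 8930 to 11200 in knockout mesoderm. The shared call rested on the endoderm libraries: leaving out wild type endoderm library 2 took the 32 to 0, leaving out knockout endoderm library 1 to 2, and leaving out wild type endoderm library 3 to 11. The average calls were 42 to 43 of 43 without any 1 library, and 0 of 43 in a test against a 1.5-fold change. Histone transcripts mostly lack poly(A) tails, and these libraries were made by ribosomal RNA depletion from total RNA.

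S-phase genes driven by E2F factors gave 5 shared rises of 25 (20%, beside 3.53% of all tested genes). They were the helicase subunit Mcm5, its loader Cdt1, the replication complex subunit Gins2 and the polymerase subunits Pole and Pola1. The number of shared rises fell to 3 without wild type endoderm library 2 or wild type mesoderm library 3. Mcm5 was at 147, 117 and 131 against 181, 178 and 176 CPM in endoderm and 149, 129 and 115 against 204, 202 and 184 in mesoderm. Mcm5, Cdt1 and Gins2 lie on chromosome 8, which is described further on. With chromosomes 8, X and Y left out the list had 1 shared rise, and against a 1.5-fold change it had 0. None of 20 mitosis genes was shared.

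Imprinted genes are expressed from the allele of a single parent. Of 24 tested, 5 were shared falls (20.8%, beside 3.76% of all tested genes) and none was a shared rise. Peg3, a paternally expressed zinc-finger gene (chromosome 7, 6703892 to 6730462), was at 222, 221 and 221 CPM in wild type and 68.2, 71.0 and 61.1 in knockout endoderm, and at 348, 472 and 578 in wild type and 70.9, 77.2 and 91.8 in knockout mesoderm (average log2 -2.14 ± 0.10 SE, adjusted p = 2.61e-12). Knockout levels overlapped between the lineages here too, and the fall was larger in mesoderm (adjusted p of the difference = 0.0427). Peg10, a retrotransposon-derived placental gene, fell by 1.78 in endoderm and by 3.01 in mesoderm. Grb10, a growth factor receptor adaptor, and Impact, a regulator of translation, fell by 0.96 ± 0.11 and fell by 0.63 ± 0.073 on average (log2, SE). Grb10 lost its shared call without wild type mesoderm library 2 or knockout mesoderm library 3. Over the whole list 11 of the 24 genes were lower and 4 higher in the average contrast, where 14.3% and 13.9% of all tested genes were.

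Of 24 SIN3 and histone deacetylase complex genes 1 was a shared fall and 1 a shared rise, 4.17% in each direction and near the background of 3.76% and 3.53%. Rbbp7, a histone-binding subunit shared by SIN3, NuRD and Polycomb complexes (X chromosome, 162760372 to 162779090), fell from 155, 147 and 164 CPM to 85.4, 69.1 and 85.0 in endoderm and from 232, 278 and 238 to 85.0, 108 and 119 in mesoderm (average log2 -1.11 ± 0.083 SE, adjusted p = 2.17e-09). Tet1, a methylcytosine oxidase that binds SIN3A, was higher by 0.62 ± 0.085 on the same scale. Sin3a, Hdac1, Hdac2 and Suds3 did not pass in the average contrast (adjusted p 0.585, 0.863, 0.691 and 0.936), and Arid4a, the paralog of Arid4b, passed there at 0.38 ± 0.11 (adjusted p = 0.0157) but in neither lineage.

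Rbbp7 was also the shared fall among 14 NuRD genes (7.14%, beside 3.76% of all tested genes). Without wild type mesoderm library 2 or 3 or knockout mesoderm library 1 the NuRD list had 1 shared rise beside that fall. The Polycomb list had a single shared fall of 18 (5.56%), Bmi1, a subunit of the ubiquitin ligase complex (average log2 -1.04 ± 0.16 SE). A single gene says little of the NuRD or the Polycomb list. Genes of DNA methylation gave 2 shared rises of 13, Tet1 and the remodeller Hells, of which Hells was lost without wild type endoderm library 1 or 2, any knockout endoderm library, or knockout mesoderm library 2 or 3. The macroH2A histone variants, taken up after their values were seen, were shared falls. H2afy was at 24.8, 23.2 and 22.1 CPM in wild type and 6.70, 5.09 and 4.06 in knockout endoderm, and at 26.3, 35.7 and 36.1 against 6.73, 5.25 and 8.56 in mesoderm (average log2 -2.20 ± 0.14 SE, adjusted p = 1.73e-10), and H2afy2 fell by 1.32 ± 0.13.

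Of 22 amino acid and integrated stress response genes 5 were shared rises (22.7%, beside 3.53% of all tested genes). Among them were the cationic amino acid transporter Slc7a3, the large neutral amino acid transporter Slc7a5 and the mitochondrial folate enzyme Mthfd2. The number was 3 without wild type endoderm library 2, and 2 with chromosomes 8, X and Y, described further on, left out. The lipoprotein receptor Vldlr was the 1 shared fall, lost without wild type mesoderm library 3 or knockout mesoderm library 2 or 3. Slc7a3 was at 46.7, 63.1 and 53.6 CPM in wild type and 121, 137 and 147 in knockout endoderm, and at 20.3, 7.75 and 6.75 against 76.3, 76.2 and 56.2 in mesoderm, with the larger rise in mesoderm (adjusted p of the difference = 0.0385). Gclm, the regulatory subunit of the enzyme that starts glutathione synthesis and 1 of the most even rises, went from 38.8, 30.6 and 34.0 CPM to 78.4, 75.4 and 86.6 in endoderm and from 45.5, 36.2 and 34.8 to 78.8, 84.9 and 82.9 in mesoderm (average log2 1.16 ± 0.081 SE). Of 22 cholesterol genes 3 were shared rises (13.6%), among them the synthesis enzymes Sqle and Mvd, and 2 with the same chromosomes left out. In the glycolysis and hypoxia list 2 of 23 were shared falls (8.7%, beside 3.76% of all tested genes). They were the glucose transporter Slc2a3 (average log2 -1.61 ± 0.15 SE) and the stress-induced gene Ndrg1 (-1.97 ± 0.25).

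Nav2, a cytoskeletal gene of neurite growth, Zfp462, a chromatin-associated zinc-finger gene, Pml, the scaffold of nuclear bodies and itself interferon-induced, and Helz2, an interferon-induced helicase, completed the even rises, with average log2 differences of 1.38, 1.14, 1.07 and 2.39. Oxidative phosphorylation (32 tested), cytosolic ribosome (38) and ER chaperone and unfolded protein response (16) lists held no shared gene. In the average contrast 2 oxidative phosphorylation genes passed, both lower, 2 ribosomal genes, 1 in each direction, and 6 unfolded protein response genes, 1 higher and 5 lower.

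Position in the genome set several shared groups apart. Chromosome 8 held 84 shared rises and 10 shared falls among 648 tested genes, which is 20.4% of all shared rises. Its median average log2 difference was 0.24, against -0.00403 for all genes, and 78.5% of its genes were above 0. In bins of 10 Mb with at least 20 tested genes, all 12 medians were above 0, from 0.12 to 0.31. In single libraries the median of chromosome 8 genes minus that of other autosomes, relative to wild type libraries of the same lineage, was -0.08 to 0.05 in wild type, 0.23 in each knockout endoderm library and 0.24 to 0.28 in knockout mesoderm. A difference in chromosome 8 copy number between the lines and an effect of the genotype cannot be told apart in this design.

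Sex chromosome genes differed too. The Y-linked genes Ddx3y, Uty and Eif2s3y were shared falls, and the summed level of 8 Y-linked genes was 86.1 to 90.3 CPM in wild type endoderm, 7.47 to 10.3 in knockout endoderm, 70.3 to 94.8 in wild type mesoderm and 5.55 to 14.2 in knockout mesoderm. Of 412 tested X-linked genes 11 were shared rises and 40 shared falls (9.71%, beside 3.76% of all tested genes). The 40 are 9.15% of shared falls, and the median average log2 difference of X-linked genes was -0.11. Per library, the X-linked median minus that of autosomes other than 8 was computed as for chromosome 8. It was -0.0286 to 0.0146 in wild type and -0.0603 to 0.00249 in knockout endoderm, which overlapped. In mesoderm it was -0.109 to 0.0508 in wild type and -0.163 to -0.12 in the knockout. Xist, the RNA that silences an X chromosome in female cells and taken up after its values were seen, was at 15.2, 12.9 and 17.9 CPM in wild type and 41.4, 46.9 and 29.4 in knockout endoderm, and at 16.5, 15 and 20.4 against 51.9, 33.0 and 30.0 in mesoderm. Sex chromosome content of the lines and the genotype cannot be told apart either.

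**Figure D5:**
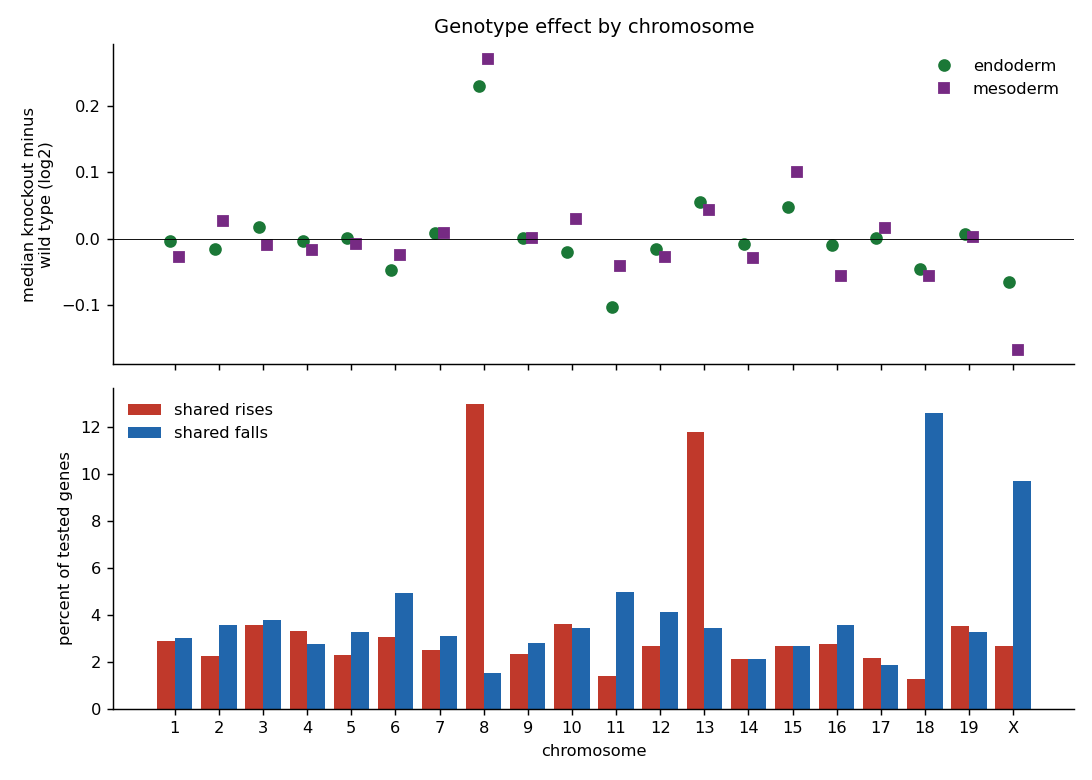
For each chromosome except Y, the median log2 difference, arid4b∆ minus WT, in each lineage, and the percentage of tested genes that were shared rises or shared falls. Chromosome 8 has the highest medians (0.229 in endoderm and 0.271 in mesoderm) and 13.0% shared rises; chromosome 13 holds many histone genes and chromosome 18 the protocadherin cluster.

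Gene clusters added to the counts. Symbols beginning with Hist made up 53 shared rises (12.9% of all), and the 22 tested genes of the gamma protocadherin cluster on chromosome 18, neuronal adhesion molecules whose transcripts share their last exons, were all shared falls, with average log2 differences between -1.04 and -0.80. Reads from the common exons may have been counted for several of these genes. Outside chromosomes 8, X and Y and without histone and clustered protocadherin symbols, 10473 tested genes held 263 shared rises, 64.0% of the total, and 361 shared falls, 82.6%. Neighbouring shared genes also included Oas1c, Oas1b, Oas1g and Oas1a on chromosome 5, Ifit2, Ifit3 and Ifit1 on chromosome 19, and Pdgfra, Kit and Kdr on chromosome 5.

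The 20 genes with opposite signs were 5 that rose in endoderm and fell in mesoderm and 15 with the reverse. Lefty1 and Lefty2, feedback inhibitors of Nodal, were among the latter. Lefty1 was at 81.1, 88.6 and 64.9 CPM in wild type and 32.9, 23.3 and 29.8 in knockout endoderm, but at 1.25, 2.07 and 1.18 in wild type and 12.9, 9.26 and 10.4 in knockout mesoderm. The gap between the lineages was smaller in the knockout than in the wild type. Sfrp1, a Wnt inhibitor, Pkdcc, a secreted kinase, and Car4, a carbonic anhydrase, had the same pattern, with -1.41 and 1.2, -2.24 and 0.92, and -1.35 and 1.97 in endoderm and mesoderm (log2).

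Among the genes that passed only in the average contrast, the mitochondrial enzyme Mdh2 was at 66.5, 64.7 and 66.3 CPM in wild type and 83.4, 78.0 and 77.5 in knockout endoderm, and at 68.3, 59.4 and 58.9 against 69.5, 78.4 and 77.1 in mesoderm (average log2 0.27 ± 0.066 SE, adjusted p = 0.0038). Xiap, an inhibitor of caspases on the X chromosome, was at -0.37 in each lineage, and the neuronal motor Kif1a at 0.44 and 0.43 (log2). Of the 789 genes that passed in the average contrast and in neither lineage, 438 were higher and 351 lower.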

How the data were processed

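RNA-seq was made from 12 libraries of directed mouse embryonic stem cells, per the labels' protocols with a directional kit after ribosomal RNA depletion. The authors deposited 1 table of raw counts for 19680 genes. The submitters' processing notes name STAR, DESeq2 and mm10; for their versions, roles and counting settings, strand use included, the sources used here give nothing, so antisense and overlapping genes are uncertain. Rn45s was left out, as were 26 genes whose deposited count in wild type endoderm library 1 had become a date. Genes were filtered with filterByExpr (minimum count 10), scaled by TMM and fitted as 4 group means with edgeR 4.0.16 in R 4.3.3; adjusted p-values are Benjamini-Hochberg over 11635 genes, and the biological coefficient of variation was 9.71%. CPM, counts scaled to the TMM-adjusted library size, were computed here. The scripts were tested on simulated data with 200 changed genes. Interaction means the endoderm effect minus the mesoderm effect.

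The comparison, the gene lists and the rule for named genes were chosen with earlier results of these data known. Named were Arid4b, the 10 largest rises and falls and the 8 most even ones (at least 5 CPM, no overlap between groups in either lineage, predicted genes left out), up to 4 genes per list by adjusted p plus exceptions, 5 genes of opposite sign and 5 called only on average. Positions and promoters are from RefSeq (GRCm38.p6). Alternatives were DESeq2 1.42.0, limma-voom (limma 3.58.1), other scaling, filters and thresholds, a replicate block and each library left out. Some results are not reported here.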

Additional observations from a re-analysis of the deposited data

Results flagged for a closer look

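The genes given here are the 17 shared or opposite genes taken by the naming rule whose genotype effect differed between endoderm and mesoderm by the interaction test of the same edgeR fit, with Benjamini-Hochberg adjusted p. Other genes with a called difference, among them Otx2, Foxd3, Ifitm3 and Kit, are outside that set. The values here are the endoderm log2 difference minus the mesoderm log2 difference. Among interferon genes, the rise was larger in endoderm for Oasl2 (2.77, adjusted p = 0.014), Mx2 (3.35, 0.0227), Ddx58 (2.05, 0.00265), Eif2ak2 (1.25, 0.0246), Irgm2 (1.46, 0.021) and Igtp (1.59, 0.0239). Among lineage genes, the fall was larger in endoderm for Eomes (-1.15, 0.00699), Gata6 (-3.05, 0.0311) and Il17rd (-0.81, 0.0157). Peg3 fell more in mesoderm (0.81, 0.0427), and Utf1 (-1.54, 0.00101) and Slc7a3 (-1.27, 0.0385) rose more in mesoderm. The signs were opposite, lower in endoderm and higher in mesoderm, for Lefty2 (-4.59, 2.06e-05), Lefty1 (-4.46, 2.3e-07), Car4 (-3.32, 0.000271), Pkdcc (-3.16, 4.05e-06) and Sfrp1 (-2.61, 4.69e-05).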

How the results depend on the processing

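In the average contrast, leaving out any 1 library gave 1429 to 1778 higher and 1397 to 1719 lower genes. The 33 genes named for the largest or the most even effects kept direction and average call in 754 of 754 alternative results. They were chosen from these same data for large or clear effects, so this says little of other genes. It does not cover the shared call, which Rspo3, 1 of them, lost without wild type endoderm library 2. The shared counts moved more, with 217 (without wild type endoderm library 2) to 485 rises and 290 (without knockout endoderm library 2) to 468 falls. Opposite genes numbered 13 (without wild type endoderm library 2) to 33 (without wild type mesoderm library 1), and shared genes with a called difference 12 to 77 for the same libraries, beside 20 and 32 with all. At an adjusted p of 0.01 there were 996 higher and 1077 lower genes on average, 188 shared rises, 231 shared falls, 9 opposite genes and 9 with a called difference. Against a 1.5-fold change these were 201, 350, 65, 110, 3 and 3. DESeq2 gave 12 opposite and 589 shared genes, 584 of them the same genes, and limma-voom 821. With no filter on low counts, 88 shared genes had a called difference. Leaving out chromosomes 8, X and Y kept 669 of 700 shared genes, and leaving out histone and clustered protocadherin genes, chosen after seeing the data, kept 767 of 772. In all, 338 shared genes held at each of 20 settings at 0.05. The average difference of Lefty1, whose signs are opposite in the lineages, was 0.75 and became -0.66 (adjusted p = 0.23) with genotype and lineage as additive terms. Same-numbered libraries had correlations of their deviations of -0.06 to 0.19 (median 0.0784, 5 of 18 pairs over 0.1) and different-numbered ones of -0.176 to 0.113 (median -0.0413, 2 of 36 over 0.1). Since not every same-numbered pair passed 0.1, the libraries were treated as unpaired. That rule cannot exclude a replicate effect, as same-numbered pairs had the higher median. A replicate block gave 1056 shared genes, which held 847 of the 848, and 61 with a called difference. Levels under about 0.506 to 1.55 CPM (3 counts) are not resolved at this depth.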

Other observations

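Some shared genes outside the naming rule were taken up after their values were seen. Kbtbd11, a BTB-domain gene on chromosome 8, was at 10.2, 10.7 and 9.07 CPM in wild type and 35.3, 31.9 and 34.9 in knockout endoderm, and at 4.75, 2.07 and 1.01 against 21.3, 20.1 and 20.6 in mesoderm. Fgf15, an FGF ligand of the early neural tube, rose by 1.24 in endoderm and 2.11 in mesoderm (log2).

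Nqo1, a quinone reductase gene on chromosome 8 that like Gclm is a known NRF2 target, rose by 1.14 ± 0.18 on average (log2, SE). It lost its shared call without knockout mesoderm library 3. Kit, the stem cell factor receptor that lies between Pdgfra and Kdr, was at 47.3, 60.4 and 42.2 against 10.5, 4.59 and 5.48 CPM in endoderm and 10.3, 6.72 and 6.92 against 3.65, 3.09 and 3.75 in mesoderm. Its fall was larger in endoderm (adjusted p of the difference = 0.0385), and its shared call was lost without wild type mesoderm library 1 or knockout mesoderm library 2. Scml2, an X-linked Polycomb-group gene, fell by 2.93 in endoderm and by 3.72 in mesoderm.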
